A study of Danio rerio with 4 samples.

Results

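The response of the adult zebrafish ventricle to resection was measured in wild-type fish as 1 RNA sequencing library of regenerating ventricles against 1 library of uninjured ventricles of the same strain. The members of the comparison were chosen from the labels: the wild-type (WT) library at 20 days post amputation (dpa) and the WT uninjured library, 2 of the 4 libraries of the study. Both came from AB* fish between 6 months and 1 year of age, and the tissue of both was labelled heart ventricle. In the 20 dpa group part of the ventricle had been cut away, and the heart was collected at 20 dpa. The other 2 libraries came from dusp6 pt30a/pt30a fish of the same age range, uninjured and at 20 dpa. They served here to show at which level a second uninjured and a second resected library held each transcript. Ventricles were frozen before extraction with Trizol and a column kit, and the labels do not say how many ventricles went into a library.

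The adult zebrafish heart replaces resected muscle. A clot closes the wound, macrophages and other leukocytes enter it, the epicardium and the endocardium are activated and make retinoic acid and matrix proteins, and cardiomyocytes near the wound partly disassemble their sarcomeres and divide. Dusp6, the gene mutated in the second pair, encodes a phosphatase that inactivates the kinase ERK downstream of FGF receptors.

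The WT uninjured library held 63222206 counts and the WT 20 dpa library held 55197408, and the dusp6 libraries lay between these totals. Levels are given as CPM, the count scaled to the library's total, and 3 counts corresponded to 0.0475 CPM in the WT uninjured library and 0.0544 CPM in the WT 20 dpa library. Mitochondrially encoded genes took 17.7% to 18.7% of the counts in all 4 libraries. By the authors' deposited RPKM, which divide by gene length, the myosin light chain gene myl7, expressed throughout the heart, stood at 12518 in the uninjured and 12312 in the resected WT library. The ventricular myosin heavy chain gene vmhc stood at 56.1 and 101 RPKM and the atrial one, myh6, at 13.8 and 22 RPKM, so the ventricular gene was the higher of the pair in both WT libraries and atrial transcript was present. In the dusp6 pair vmhc stood at 108 and 34.7 RPKM and myh6 at 7.33 and 35.4 RPKM. The ventricular gene was thus not the higher of the pair in the dusp6 20 dpa library. With 1 library a side no difference had a replicate check. Intervals given with folds are exact 95% intervals for the counts and cover counting error only, since reads without molecular identifiers can be copies of 1 molecule. Headers of the tables followed 1 naming pattern for uninjured and another for 20 dpa libraries, and no batch is labelled, so resection and a batch of library preparation, if there was one, cannot be told apart. In whole ventricles, more cells of a type and more RNA per cell cannot be told apart either.

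Of 15111 genes with at least 50 counts in either WT library, 472 were at least 2-fold higher at 20 dpa (3.12%) and 418 were at least 2-fold lower (2.77%), by the difference of log2(CPM + 1). That scale understates the change of low genes, and a pseudocount of 10 CPM left 90 higher and 78 lower. Genes called 2-fold apart are counted on that scale throughout. Folds given with a gene are ratios of CPM, so a low gene can pass 2-fold by ratio without being counted. The median difference over all these genes was -0.08 and the quartiles were -0.35 and 0.21. Below 0 lay 8707 genes and above 0 lay 6404, the background for the signs of the lists. The higher genes together took 0.757% of the counts before resection and 2.1% at 20 dpa. The lower genes took 1.72% and 0.672%. The counting interval of the fold lay wholly past 2-fold for 431 of the higher and 381 of the lower genes, and 51 and 32 genes differed by 4-fold or more. In all 5.89% of genes were 2-fold apart between the WT libraries. For scale, 3.4% were 2-fold apart between the uninjured dusp6 and WT libraries (1.65% higher in dusp6) and 3.46% between the resected dusp6 and WT libraries (1.3% higher in dusp6).

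**Figure D1:**
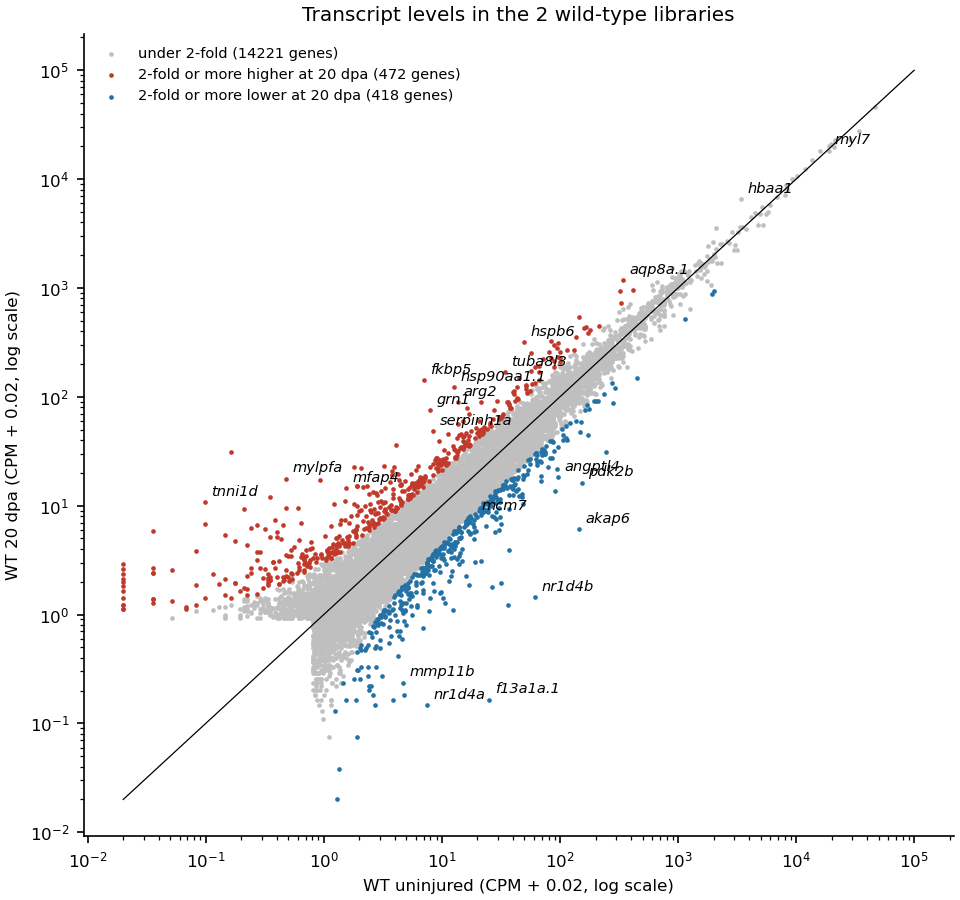
Level of every gene with at least 50 counts in either WT library, uninjured on the x axis and 20 dpa on the y axis, both in CPM plus 0.02 on log axes; each point is 1 gene and the line marks equal levels. The 472 red genes are 2-fold or more higher and the 418 blue genes 2-fold or more lower at 20 dpa; myl7 lies close to the line, while nr1d4b, akap6 and f13a1a.1 lie far below it and fkbp5 and mylpfa far above it.

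The genes with the largest differences upward fell into a few kinds. Skeletal muscle genes made up 6 of the 12 highest named genes: mylpfa, tnni1d, pvalb4, actc1b, pvalb3 and tnnc2. The gene that differed most, named MYH2 (8 of 8) in the tables and described here after its values were seen, is a myosin heavy chain of the same kind, with 0.142 CPM before and 31.2 CPM after resection and below 1 CPM in both dusp6 libraries. The other 6 of the 12 were fkbp5, hsp90aa1.1, gpd1a, grn1, socs3a_1 and chd5. Of these, hsp90aa1.1, a cytosolic chaperone of the heat shock response, had the same contrast in both genotypes, with 12.7 CPM in WT uninjured and 122 CPM in WT 20 dpa (9.59-fold, 8.91 to 10.3), and 17.7 and 115 CPM in the dusp6 pair.

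In fkbp5 the WT 20 dpa library stood apart from the other 3. This gene encodes a co-chaperone of steroid receptors and is a classical glucocorticoid target. It was measured at 6.99 CPM in WT uninjured and 142 CPM in WT 20 dpa (20.4-fold, 18.5 to 22.5), against 11.8 and 19.3 CPM in the dusp6 pair. In gpd1a, a glycerol-3-phosphate dehydrogenase gene, and in socs3a_1, a feedback inhibitor of cytokine signalling, the WT uninjured library was the one that stood apart. gpd1a stood at 0.190 CPM in WT uninjured and 9.37 CPM in WT 20 dpa, and at 6.73 and 4.86 CPM in the dusp6 libraries. socs3a_1 stood at 2.06 and 21.9 CPM in WT and at 32.5 and 25.3 CPM in the dusp6 pair, so the WT difference was not seen against the other uninjured library. The suffix of socs3a_1 marks a symbol that the tables use for more than 1 gene model.

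Lists of skeletal muscle, liver and digestive markers lay higher in the WT 20 dpa library by their medians. They are described before the cardiac groups because they touch the largest folds. Of 40 skeletal muscle markers above the floor, 21 were 2-fold higher at 20 dpa and 0 lower, with a median difference of 1.04. A marker near 0 when uninjured passed the floor only through the 20 dpa library. Without the floor 21 of 58 were 2-fold higher, with a median of 0.40. mylpfa, a fast muscle myosin light chain, stood at 0.459 CPM uninjured and 17.7 CPM at 20 dpa (38.6-fold, 26.7 to 57.9), and tnni1d, a troponin I gene, at 0.0791 and 10.8 CPM (137-fold, 58.3 to 423). The dusp6 libraries held mylpfa at 0.313 and 5.20 CPM and tnni1d at 0.148 and 0.395 CPM. Over all 58 markers in the table the summed level was 7822 CPM uninjured and 8355 CPM at 20 dpa, because genes that the ventricle expresses itself, such as acta1b and ckma, dominate it. The 42 markers under 10 CPM in both uninjured libraries summed to 21.9 CPM in WT uninjured and 162 CPM in WT 20 dpa. In the dusp6 pair these markers summed to 20.1 and 56.4 CPM. Of the 42, 10 were at 0 counts in WT uninjured. They were chosen by low uninjured levels, and such a choice favours a higher level at 20 dpa.

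Liver and digestive markers were higher at lower levels in WT. In the dusp6 pair the medians of these lists were -0.02 and 0.22, although single markers such as apoa1b were higher there too. Of 15 liver markers above the floor 5 were 2-fold higher and 0 lower, with a median of 0.70. Without the floor 5 of 41 were 2-fold higher, with a median of 0.15. The summed level of the 41 in the table was 40.3 CPM uninjured and 82.4 CPM at 20 dpa in WT. In the dusp6 pair it was 128 and 41.5 CPM. The apolipoprotein gene apoa1b stood at 0.364 CPM uninjured and 7.37 CPM at 20 dpa (20.3-fold, 13.3 to 32.3) in WT. In the dusp6 pair apoa1b stood at 0.0494 and 0.933 CPM. The 35 liver markers under 10 CPM in both uninjured libraries summed to 12.1 CPM in WT uninjured and 40.6 CPM in WT 20 dpa, and to 14.8 and 15.9 CPM in the dusp6 pair. Of 14 gut and pancreas markers above the floor 10 were 2-fold higher and 0 lower, with a median of 1.25. Without the floor 10 of 34 were 2-fold higher, with a median of 0.33. The pancreatic protease gene prss59.2 was at 0 in both uninjured libraries, at 2.92 CPM in WT 20 dpa and at 0.144 CPM in dusp6 20 dpa. The summed level of the digestive list was 159 and 150 CPM in WT, dominated by ctrb1, the chymotrypsinogen gene, at 152 and 111 CPM. In the dusp6 pair the list summed to 132 and 80.8 CPM. Its 29 members under 10 CPM in both uninjured libraries summed to 7.17 and 39.0 CPM in WT, with 8 of them at 0 counts in WT uninjured. In the dusp6 pair these members summed to 22.5 and 16.7 CPM, the opposite direction. The 35 liver and 29 digestive members were chosen by low uninjured levels, and such a choice favours a higher level at 20 dpa. With the dusp6 uninjured library as reference 7 liver markers were 2-fold higher and 4 lower, and 8 digestive markers were higher and 4 lower. These genes carried few counts in the ventricle. Among 5 gonad markers above the floor 0 were 2-fold apart, with a median of 0.08, and among 6 neural and glial markers 0, with 0.09. Of 10 epithelial and skin markers 2 were 2-fold higher and 0 lower, with a median of 0.42 in WT and -0.09 in the dusp6 pair. Leaving out the genes of these tissues, except the neural and glial ones, gave 434 higher and 418 lower genes. The part of these tissues in the groups below was not tested.

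Replication genes were higher at 20 dpa as a group. Of 44 genes of DNA replication above the floor, 8 were 2-fold higher and 1 lower, 35 lay above 0, and the median difference was 0.43. The replicative helicase is a ring of 6 MCM proteins that unwinds DNA ahead of the fork. mcm6 stood at 2.72 CPM uninjured and 13 CPM at 20 dpa (4.78-fold, 4.04 to 5.68) and mcm3 at 1.38 and 7.36 CPM (5.35-fold, 4.23 to 6.82). mcm2 had a fold of 4.44, mcm4 of 4.47, and mcm5 went from 3.81 to 14.1 CPM. The exception was mcm7, of the same ring, at 19.2 CPM uninjured and 7.99 CPM at 20 dpa (2.41-fold lower, 2.16 to 2.69), and at 26.2 and 6.66 CPM in the dusp6 pair. Before resection mcm7 thus had more counts than any of the other 5 ring genes named here, and at 20 dpa it had fewer than mcm2, mcm4, mcm5 and mcm6. These are counts per gene and not levels per length. pcna, the sliding clamp of the DNA polymerases, stood at 22.2 and 47.6 CPM (2.15-fold, 2.01 to 2.29). tyms, for thymidylate synthesis, stood at 1.49 and 4.49 CPM, and chaf1a, a chromatin assembly factor that travels with the fork, at 2.94 and 7.57 CPM. In the dusp6 pair the ring genes other than mcm7 were also higher at 20 dpa. The CPM ratios there were 1.99 for mcm6, 2.26 for mcm2, 2.07 for mcm4 and 2.37 for mcm3, smaller than in WT. On the log2(CPM + 1) scale these 4 genes were less than 2-fold higher in that pair. The list's median there was 0.09.

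Genes of mitosis differed less than those of replication. Of 37 mitosis and cell cycle genes above the floor, 27 lay above 0, with a median of 0.25. On the log2(CPM + 1) scale 1 was 2-fold higher (2.7%, against 3.12% of all genes) and 0 lower. That gene was prc1b, which bundles the microtubules of the central spindle, at 1.04 CPM uninjured and 3.79 CPM at 20 dpa. With a pseudocount of 0.1 CPM 4 of the 37 were 2-fold higher, against 834 of all 15111 genes. The proliferation antigen gene mki67 stood at 2.77 and 5.02 CPM (1.81-fold, 1.49 to 2.2), and smc2, a condensin subunit gene, at 1.87 and 4.40 CPM. mki67 stood at 4.34 and 3.91 CPM in the dusp6 pair, and the list's median was -0.47. Against the dusp6 uninjured library in place of its own control the WT median of the list was -0.06, so its sign rested on the WT uninjured library.

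Among the matrix genes, those of collagen processing had the highest median. Of 26 collagen processing genes 5 were 2-fold higher and 0 lower, with a median of 0.51. loxl2a, a lysyl oxidase that cross-links collagen, stood at 1.88 CPM uninjured and 15.1 CPM at 20 dpa (8.05-fold, 6.63 to 9.83). In the dusp6 pair loxl2a stood at 2.52 and 5.94 CPM. The collagen chaperone genes serpinh1a and serpinh1b stood at 8.46 and 48.5 CPM (5.73-fold, 5.22 to 6.30) and at 9.46 and 38.9 CPM (4.11-fold, 3.75 to 4.51). Both chaperone genes had the same contrast in the dusp6 pair, with 6.75 and 30.4 CPM and with 3.97 and 33.8 CPM. fkbp7, a prolyl isomerase of the endoplasmic reticulum, stood at 5.38 and 14.8 CPM in WT and at 4.54 and 15.8 CPM in the dusp6 pair. The list's median in the dusp6 pair was 0.28, with 4 genes 2-fold higher and 1 lower.

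Among 23 collagen genes 5 were 2-fold higher and 2 lower of the list, with a median of 0.47. The higher genes were col12a1b, col11a1b, col12a1a, col1a1a and col5a1, which encode fibrillar collagens and the collagens that bind to fibrils. col12a1b stood at 1.2 CPM uninjured and 10.3 CPM at 20 dpa (8.58-fold, 6.74 to 11), and col1a1a, the main fibrillar collagen, at 115 and 269 CPM. The lower genes of the list, col4a6 and col4a5, encode basement membrane collagens. Outside the list, and named after its values were seen, col19a1_2, of a fibril-associated type, was lower as well, at 3.51 and 0.743 CPM, and the fibrillar gene col27a1a of the list stood at 3.54 and 1.49 CPM, so the directions did not follow collagen type. col4a6 and col4a5 stood at 4.16 and 0.851 CPM (4.89-fold lower, 3.57 to 6.81) and at 4.67 and 1.25 CPM (3.73-fold lower, 2.86 to 4.92). In the dusp6 pair col12a1b went from 3.08 to 5.37 CPM and col1a1a from 155 to 172 CPM, and the list's median was -0.01.

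The provisional matrix, which is laid down in wounds before scar collagen, contained genes with opposite contrasts in WT and dusp6 fish. The list also counts other matrix genes, the elastins among them. Of its 36 genes 6 were 2-fold higher in WT and 3 lower, with a median of 0.11, against -0.24 in the dusp6 pair. The higher ones were tnc, fn1a, fn1b, mfap2, postna and postnb, and the lower ones elna, elnb and bgnb. The fibronectin gene fn1b, which the epicardium deposits after injury in zebrafish, stood at 166 CPM uninjured and 437 CPM at 20 dpa (2.63-fold, 2.57 to 2.69) in WT, and at 209 and 183 CPM in the dusp6 pair. fn1a stood at 17.8 and 48.6 CPM in WT and at 25.4 and 17.2 CPM in the dusp6 pair. tnc, the tenascin C gene, stood at 0.775 and 4.06 CPM in WT and at 2.62 and 1.17 CPM in the dusp6 pair. For fn1a, fn1b and tnc the WT 20 dpa library was the highest of the 4 and the WT uninjured library was the lowest or within the range of the dusp6 libraries. The elastin genes elna and elnb were lower in both pairs, with 40.7 and 18.0 CPM for elna in WT and 37.1 and 13.8 CPM in the dusp6 pair. Both also belong to the list of atrium and outflow tract markers. Of its 14 genes above the floor 1 was 2-fold higher and 2 lower in WT, elna and elnb, with a median of -0.05. The part of outflow tract tissue in these values was not tested.

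Matrix proteases and their inhibitors had a median of 0.38 over 25 genes, with 4 genes 2-fold higher and 2 lower. In the dusp6 pair the list lay the other way, with a median of -0.40, 1 gene higher and 4 lower, and with the dusp6 uninjured library as reference the WT median was 0.05. The lower ones in WT were f13a1a.1 and mmp11b. mmp11b, a stromelysin gene, stood at 4.68 CPM uninjured and 0.217 CPM at 20 dpa (21.5-fold lower, 12.1 to 42.2), and at 5.33 and 0.359 CPM in the dusp6 pair. f13a1a.1 encodes the A chain of coagulation factor XIII, which cross-links fibrin. It stood at 25 CPM in WT uninjured and 0.145 CPM in WT 20 dpa (172-fold lower, 87.2 to 400), but at 0.280 and 0.269 CPM in the dusp6 libraries, so 1 library was high and the other 3 were low. The related gene f13a1b stood at 16.9 and 35.1 CPM in WT and at 33.9 and 19.6 CPM in the dusp6 pair. With the floor raised to 250 counts the list's median was 0.00.

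Epicardial genes were higher as a group in WT and few passed 2-fold. Of 17 epicardial genes 16 lay above 0, with a median of 0.68, and 2 were 2-fold higher and 0 lower. The list's median in the dusp6 pair was 0.28, with 2 genes 2-fold higher and 2 lower. aldh1a2, which makes retinoic acid in the activated epicardium and endocardium, stood at 44.8 CPM uninjured and 149 CPM at 20 dpa (3.34-fold, 3.2 to 3.48), and at 32.6 and 109 CPM in the dusp6 pair. cav1, the caveolin gene, stood at 96.1 and 232 CPM (2.42-fold, 2.34 to 2.49), and at 76.2 and 205 CPM in the dusp6 pair. For both genes the 2 resected libraries lay above the 2 uninjured ones. The epicardial transcription factor gene tcf21 stood at 12.7 and 21.5 CPM (1.70-fold, 1.55 to 1.86), the chemokine gene cxcl12a at 12.2 and 24.2 CPM, and mdka, a midkine growth factor gene, at 36.2 and 72.3 CPM. The retinoid genes rbp4 and crabp2b, which carry retinol and bind retinoic acid, were also higher, with 101 and 258 CPM for rbp4 and 1.06 and 3.73 CPM for crabp2b. rbp4 is also made by the liver.

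Endothelial and endocardial genes had a median close to that of all genes, -0.02 over 41 genes. Of these, 4 were 2-fold higher and 0 lower: aqp8a.1, klf2b, mmrn2b and klf2a. The water channel gene aqp8a.1 stood at 343 CPM uninjured and 1176 CPM at 20 dpa (3.43-fold, 3.37 to 3.48), and at 281 and 871 CPM in the dusp6 pair. klf2a and klf2b encode transcription factors that respond to blood flow. klf2b stood at 10.3 and 32.4 CPM and klf2a at 25.4 and 57.9 CPM, and in the dusp6 pair they stood at 15.4 and 48.8 CPM and at 21.1 and 73.0 CPM. All 4 genes were higher in both resected libraries than in both uninjured ones. Among 21 mural and smooth muscle genes the median was 0.29 and 2 were 2-fold higher, of which cnn1b, a smooth muscle calponin, stood at 5.43 and 19.6 CPM.

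Macrophage genes formed the cardiac list with the highest median. Of 40 macrophage genes 14 were 2-fold higher and 0 lower, 38 lay above 0, and the median was 0.84. The macrophage gene mfap4, a marker in zebrafish, stood at 1.53 CPM uninjured and 14.4 CPM at 20 dpa (9.40-fold, 7.6 to 11.7). The progranulin gene grn1 stood at 7.91 and 75.4 CPM (9.53-fold, 8.68 to 10.5) and grn2 at 0.269 and 3.75 CPM. arg2, an arginase gene, stood at 13.5 and 88.8 CPM (6.56-fold, 6.10 to 7.06). These 4 genes were also higher in the dusp6 20 dpa library than in its control, with 1.81 and 6.26 CPM for mfap4, 19.7 and 38.2 CPM for grn1, 0.905 and 6.95 CPM for grn2 and 3.97 and 61.3 CPM for arg2. Other members of the list had no such contrast in the dusp6 pair. The mannose receptor gene mrc1b stood at 5.11 and 14.2 CPM in WT and at 5.02 and 4.88 CPM in the dusp6 pair, and coro1a, a leukocyte actin regulator, at 8.81 and 22.1 CPM in WT and 8.31 and 9.26 CPM in the dusp6 pair. The scavenger receptor gene marco stood at 12.9 and 27.8 CPM in WT and at 21.0 and 12.2 CPM in the dusp6 pair. The list's median in the dusp6 pair was 0.08, with 3 genes 2-fold higher and 3 lower.

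Other blood and immune lists differed less. Of 11 neutrophil genes 0 were 2-fold apart on the log2(CPM + 1) scale. Their median of 0.66 came to 0.13 with a floor of 250 counts. With a pseudocount of 0.1 CPM 3 of the 11 were 2-fold higher, against 834 of all 15111 genes. The neutrophil peroxidase gene mpx stood at 0.822 CPM uninjured and 2.05 CPM at 20 dpa in WT, and at 6.98 and 1.74 CPM in the dusp6 pair. Lymphocyte genes had a median of -0.01 over 10 genes, interferon response genes -0.18 over 25 and thrombocyte genes -0.02 over 11. Red blood cell genes had a median of 0.06 over 20, with the alpha globin gene hbaa1 at 3404 and 6523 CPM. Antigen presentation genes had a median of 0.00 over 22 and held genes that differed in opposite directions. The class I genes mhc1uba and mhc1uka stood at 79.9 and 255 CPM and at 28.0 and 5.74 CPM, and mhc1uba at 211 and 89.9 CPM in the dusp6 pair. Class I genes of zebrafish vary in number and sequence between fish, and reads of near-identical copies can be split between them, so these values are uncertain.

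Genes of protein folding were higher in both compartments. Of 53 genes of folding and stress in the endoplasmic reticulum (ER) 13 were 2-fold higher and 0 lower, with a median of 0.52. The ER chaperone genes hsp90b1 and hspa5 stood at 56.9 CPM uninjured and 174 CPM at 20 dpa (3.05-fold, 2.94 to 3.18) and at 66.3 and 191 CPM (2.88-fold, 2.78 to 2.99). manf, a secreted factor induced by ER stress, stood at 7.92 and 22.7 CPM, and xbp1, a transcription factor gene of the unfolded protein response, at 51.8 and 119 CPM. All 4 were higher at 20 dpa in the dusp6 pair, with 62.4 and 123 CPM for hsp90b1, 53.8 and 131 CPM for hspa5, 6.61 and 18.2 CPM for manf and 59.8 and 95.7 CPM for xbp1. The list's median in the dusp6 pair was 0.15, with 4 genes 2-fold higher and 1 lower. The sensor kinase gene ern1 differed between the pairs, with 12.8 and 27.4 CPM in WT and 16.3 and 7.09 CPM in the dusp6 pair.

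Of 52 cytosolic and mitochondrial chaperone genes 10 were 2-fold higher and 0 lower, with a median of 0.38, and the list's median in the dusp6 pair was 0.37. hspb6, a small heat shock protein of muscle, stood at 49.8 CPM uninjured and 319 CPM at 20 dpa (6.42-fold, 6.18 to 6.67). hspb6 stood at 233 and 419 CPM in the dusp6 pair, so the WT uninjured library was the lowest of the 4 by a wide margin. hspa4a, an exchange factor of the HSP70 family, stood at 40.5 and 112 CPM in WT and at 23.8 and 98.1 CPM in the dusp6 pair. The heat-inducible gene hsp70l stood at 2.88 and 8.59 CPM in WT and at 1.27 and 12.1 CPM in the dusp6 pair. The shift of the proteasome was small in size, with all 43 subunit genes above 0, a median of 0.31 and 0 genes 2-fold apart in WT. The list's median in the dusp6 pair was 0.03.

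Tubulin genes were higher in both resected libraries. The list, which counts the tubulins and the proteins of the gamma-tubulin complex, had 20 genes above the floor, a median of 0.34 and 8 genes 2-fold higher and 0 lower. tuba8l3 stood at 34.1 CPM uninjured and 168 CPM at 20 dpa (4.92-fold, 4.70 to 5.16), tubb2b at 21.4 and 90.1 CPM (4.22-fold, 3.97 to 4.49) and tubb5 at 1.49 and 11 CPM (7.37-fold, 5.92 to 9.26). tubb4b, the most abundant of the 8, stood at 331 and 720 CPM. In the dusp6 pair the same 4 genes stood at 23.1 and 135 CPM, 20.2 and 66.6 CPM, 1.89 and 7.16 CPM, and 295 and 602 CPM in that order, and the list's median was 0.91. Tubulin paralogs share sequence, so the split of reads between them is uncertain.

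**Figure D2:**
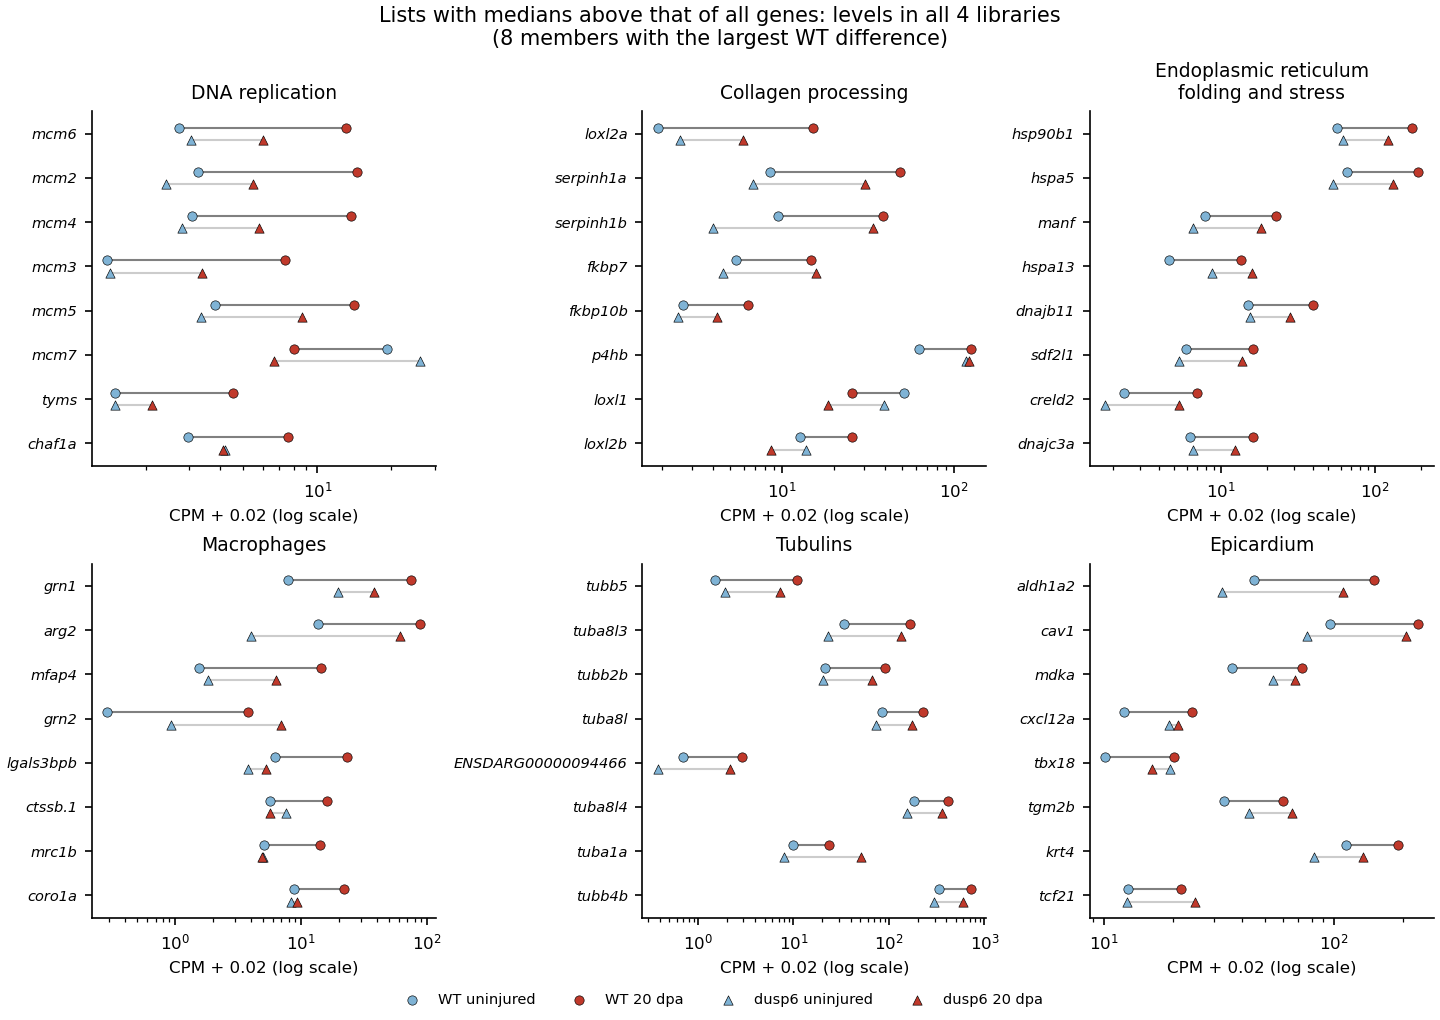
Levels in CPM plus 0.02 on log axes for the 8 members with the largest WT difference in 6 lists, in WT (circles) and dusp6 (triangles) libraries, uninjured in blue and 20 dpa in red, 1 library per symbol. The ring genes mcm2 to mcm6 and the tubulins are to the right at 20 dpa in both genotypes while mcm7 is to the left, and mrc1b and coro1a differ in WT but lie close together in the dusp6 pair.

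Genes of the cardiomyocyte itself differed in few members between the WT libraries. Of 46 cardiac sarcomere genes 4 were 2-fold higher (8.7%, against 3.12% of all genes) and 1 lower, with a median of 0.07. The higher ones were tnni1c, tnnc1b, tcap and smyd1b. tcap, which caps titin at the Z-disc, stood at 100 CPM uninjured and 226 CPM at 20 dpa (2.25-fold, 2.18 to 2.32) and at 69.3 and 312 CPM in the dusp6 pair. tnnc1b, a troponin C gene, stood at 20.6 and 60.3 CPM in WT and at 18.6 and 110 CPM in the dusp6 pair. The lower one was lmod2a, a leiomodin that elongates thin filaments, at 115 and 40.1 CPM in WT and at 179 and 62.9 CPM in the dusp6 pair. Some sarcomere genes are shared with skeletal muscle, whose markers were higher in the same library.

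The 32 genes of calcium handling and excitation had a median of -0.03. On the log2(CPM + 1) scale 0 were 2-fold higher and 1 lower, against 3.12% and 2.77% of all genes. That gene was akap6, which anchors protein kinase A at the nuclear envelope of cardiomyocytes. It stood at 145 CPM uninjured and 6.09 CPM at 20 dpa (23.8-fold lower, 21.3 to 26.6) and at 104 and 13.2 CPM in the dusp6 pair, so both resected libraries were below both uninjured ones. Cardiomyocyte stress and fetal genes had a median of 0.28 over 21 genes. On the log2(CPM + 1) scale 1 member was 2-fold higher (4.76%, against 3.12% of all genes). It was acta1a, a skeletal actin that the stressed heart re-expresses in mammals, with 84.4 and 322 CPM (3.82-fold, 3.70 to 3.94). In the dusp6 pair acta1a stood at 124 and 211 CPM. Skeletal muscle markers were higher in the same WT 20 dpa library, and the part of skeletal muscle in acta1a was not tested. nppa, the natriuretic peptide gene, stood at 1674 and 1542 CPM (1.09-fold lower, 1.08 to 1.1), and at 1569 and 2400 CPM in the dusp6 pair. The list's median in the dusp6 pair was 0.51, with 5 genes 2-fold higher and 0 lower. Against the dusp6 uninjured library the WT median of the list was 0.73, with 7 genes 2-fold higher and 0 lower. The count of 1 in WT thus depended on the WT uninjured library. Of 30 core cardiac transcription factor genes 0 were 2-fold higher and 1 lower, against 3.12% and 2.77% of all genes. The lower one was srfb, with 25.8 and 12.1 CPM.

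Genes of fuel use differed in single members rather than as lists. The clearest were pdk2b and angptl4. pdk2b encodes a kinase that inactivates pyruvate dehydrogenase and so holds back glucose oxidation. It stood at 153 CPM uninjured and 16.2 CPM at 20 dpa (9.40-fold lower, 8.78 to 10.1), and at 256 and 2.66 CPM in the dusp6 pair. pdk2a stood at 530 and 324 CPM in WT and at 827 and 188 CPM in the dusp6 pair. angptl4, a secreted inhibitor of lipoprotein lipase induced by fasting and fatty acids, stood at 96.9 and 18.3 CPM (5.29-fold lower, 4.94 to 5.65), and at 172 and 17.0 CPM in the dusp6 pair. For pdk2b, pdk2a and angptl4 both resected libraries lay below both uninjured libraries.

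The list of fatty acid oxidation and lipid uptake had a median of -0.13 over 45 genes, with 1 gene 2-fold higher (2.22%) and 3 lower. Among all genes 3.12% were 2-fold higher and 2.77% lower. acsl1b, which activates long-chain fatty acids, stood at 1957 CPM uninjured and 883 CPM at 20 dpa (2.22-fold lower, 2.19 to 2.24), and mlycd, malonyl-CoA decarboxylase, at 21.4 and 8.12 CPM. Of 39 genes of glycolysis and glucose uptake 4 were 2-fold higher and 1 lower, with a median of 0.14. hk2, a hexokinase gene, stood at 1.79 and 10.3 CPM (5.78-fold, 4.71 to 7.13), and at 0.954 and 5.96 CPM in the dusp6 pair. gapdhs stood at 137 and 352 CPM and aldocb at 214 and 447 CPM, while the phosphofructokinase gene pfklb stood at 25.9 and 11.3 CPM. Nuclear genes of oxidative phosphorylation had a median of 0.14 over 91 genes. Of these 1 was 2-fold higher (1.1%) and 1 lower, below the shares of all genes. The lower one was cox4i2, a subunit isoform of cytochrome c oxidase induced by low oxygen in mammals, at 11.4 and 4.40 CPM.

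Cholesterol genes had 3 members 2-fold higher of 31 and a median of 0.11. The low density lipoprotein receptor gene ldlrb stood at 0.459 CPM uninjured and 3.53 CPM at 20 dpa (7.70-fold, 5.20 to 11.8) and cyp51, of sterol synthesis, at 1.85 and 6.09 CPM. Antioxidant genes had a median of 0.16 over 34, with 1 gene 2-fold higher (2.94%) and 3 lower, against 3.12% and 2.77% of all genes. In the dusp6 pair the list's median was -0.05, with 0 genes higher and 5 lower. With the dusp6 uninjured library as reference 0 were higher and 5 lower in WT as well. The glutathione peroxidase genes gpx1a and gpx4a stood at 88.7 and 32.0 CPM (2.77-fold lower, 2.63 to 2.93) and at 74.0 and 29.7 CPM, and catalase, cat, at 176 and 77.6 CPM. The thioredoxin gene txn was the 1 member 2-fold higher, at 6.82 and 16.3 CPM in WT, with 12.9 and 12 CPM in the dusp6 pair.

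Clock genes included the list with the lowest median of the 48. The circadian clock is a loop in which Clock and Arntl proteins activate the Rev-erb (nr1d), Ror, Period and Cry genes. Of 19 genes of the Rev-erb and Ror arm 8 were 2-fold lower and 0 higher, with a median of -0.64. nr1d4b, a nuclear receptor gene of the Rev-erb family, stood at 61.6 CPM uninjured and 1.43 CPM at 20 dpa (43.0-fold lower, 34.4 to 54.5), and nr1d4a at 7.47 and 0.127 CPM (58.9-fold lower, 28.3 to 147). Both genes had the same contrast in the dusp6 pair, with 37.8 and 0.844 CPM and with 11.3 and 0.287 CPM. nfil3-2, a repressor that shares sites with the PAR-bZIP factors, stood at 93.6 and 21.5 CPM, and clocka_1, an activator of the loop, at 12.2 and 2.48 CPM. Both arntl2 and arntl1b, its partners, were lower, with 13 and 4.24 CPM and with 22.8 and 10.4 CPM. The list's median in the dusp6 pair was -0.65.

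The Period and Cry arm was mixed. Of its 27 genes 1 was 2-fold higher (3.7%) and 3 lower, with a median of 0.03. Among all genes 3.12% were 2-fold higher and 2.77% lower. dbpb, a PAR-bZIP output gene, stood at 28.8 CPM uninjured and 8.66 CPM at 20 dpa (3.32-fold lower, 3 to 3.68), cry1bb at 211 and 90.9 CPM, and fbxl3a, whose product degrades Cry proteins, at 39.1 and 14.6 CPM. bhlhe40, a repressor of the loop, stood at 41.3 and 91.3 CPM. The hour at which hearts were collected is not in the labels, so resection and clock phase cannot be told apart.

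Glucocorticoid response genes did not share a direction. Of 31 genes 3 were 2-fold higher and 4 lower, with a median of 0.09. This balance rested on the WT uninjured library: against the dusp6 uninjured library the median was -0.35, with 1 gene higher and 5 lower, against the mean of both it was -0.15, and in the dusp6 pair it was -0.33, with 1 higher and 6 lower. The higher ones were fkbp5, socs3a_1 and cebpd, described for fkbp5 and socs3a_1 above, and cebpd, a C/EBP factor gene, stood at 19.6 CPM uninjured and 51.4 CPM at 20 dpa in WT and at 65.8 and 52.1 CPM in the dusp6 pair. The lower ones were mt2, angptl4, zbtb16b and zbtb16a. mt2, a metallothionein gene, stood at 15.8 and 2.25 CPM (7.05-fold lower, 5.85 to 8.57) and at 17.7 and 4.94 CPM in the dusp6 pair. Immediate early genes had a median of 0.19 over 37, with 2 higher (5.41%) and 2 lower, against 3.12% and 2.77% of all genes. egr1, an early growth response factor gene, stood at 3.59 and 16.5 CPM in WT and at 10.9 and 9.93 CPM in the dusp6 pair, and nr4a2a, an orphan nuclear receptor gene, at 6.96 and 1.56 CPM in WT and at 1.23 and 1.96 CPM in the dusp6 pair. For nr4a2a the WT uninjured library was high and the other 3 were low.

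Autophagy genes were lower as a group. Of 46 genes of autophagy and atrophy 40 lay below 0, against 8707 of all 15111 genes. The list's median was -0.38, and 5 genes were 2-fold lower and 1 higher (2.17%, against 3.12% of all genes). bnip3, a receptor that sends mitochondria to autophagy, stood at 172 CPM uninjured and 44.9 CPM at 20 dpa (3.83-fold lower, 3.67 to 4), and at 211 and 89.4 CPM in the dusp6 pair. calcoco1a, an autophagy receptor gene, stood at 86.3 and 27.2 CPM and GABARAPL1, of the ubiquitin-like proteins on the autophagosome membrane, at 68.1 and 25.9 CPM. atg9a, for the lipid scramblase of the growing membrane, stood at 33.0 and 15.5 CPM. fbxo25, an F-box ubiquitin ligase gene, stood at 12.3 and 1.09 CPM (11.3-fold lower, 8.72 to 15.0). The 1 higher gene was foxo3b, a transcription factor gene of the fasting response, at 6.86 and 16.7 CPM. All 5 lower genes were also lower at 20 dpa in the dusp6 pair, where the list's median was -0.47.

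**Figure D3:**
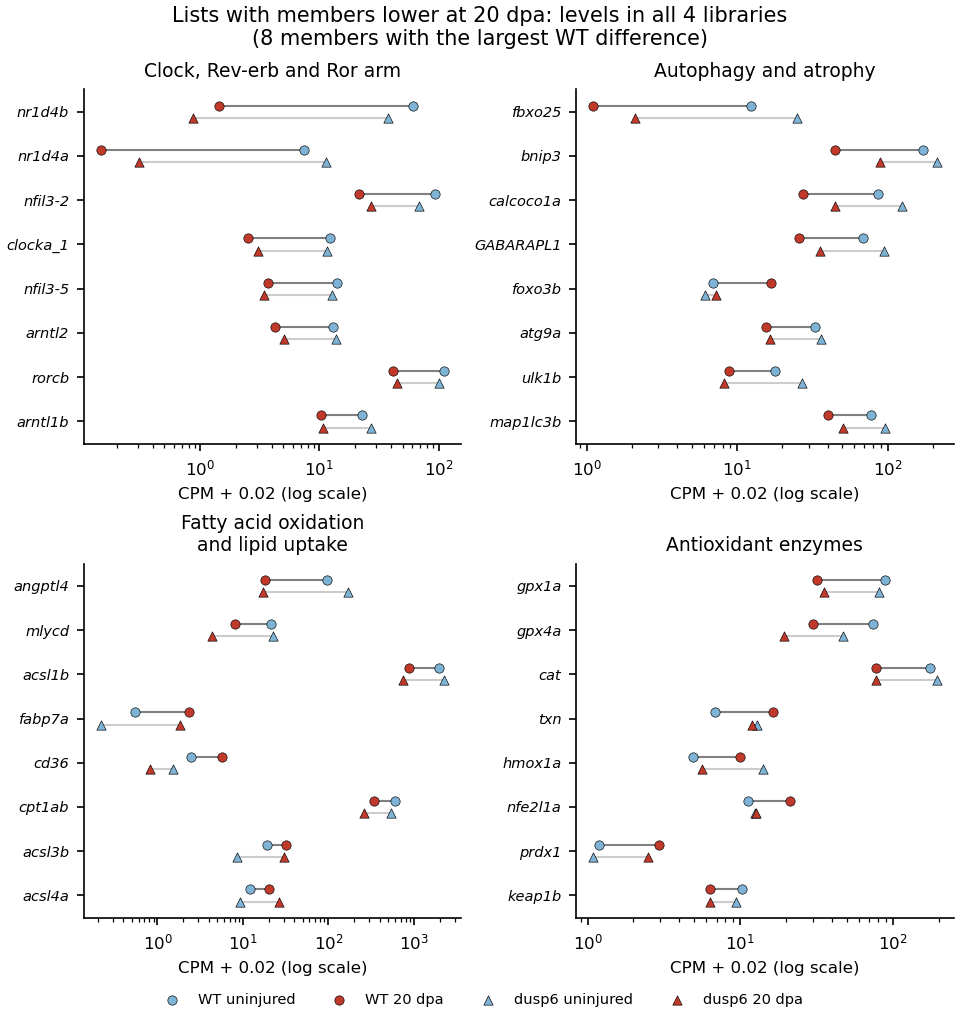
Levels in CPM plus 0.02 on log axes for the 8 members with the largest WT difference in 4 lists, in WT (circles) and dusp6 (triangles) libraries, uninjured in blue and 20 dpa in red, 1 library per symbol. nr1d4b, nr1d4a, fbxo25 and angptl4 are far to the left at 20 dpa in both genotypes, while txn and cd36 differ from 1 genotype to the other.

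The remaining genes among the 12 with the largest downward differences were grin3bb, klhl43 and fbxl3l. The glutamate receptor subunit gene grin3bb stood at 17.1 CPM uninjured and 1.87 CPM at 20 dpa (9.15-fold lower, 7.47 to 11.3), klhl43 at 21.4 and 3.10 CPM, and fbxl3l, an F-box gene, at 10.1 and 1.39 CPM. All 3 were also at least 2-fold lower in the dusp6 pair. Of the 12, 11 were lower at 20 dpa in both genotypes by 2-fold or more, and f13a1a.1 was the exception.

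Transcripts of the FGF and ERK pathway, which Dusp6 limits, differed in few members. Of 21 feedback and target genes 0 were 2-fold apart on the log2(CPM + 1) scale, with a median of 0.08. dusp6 stood at 90 CPM uninjured and 105 CPM at 20 dpa (1.16-fold, 1.12 to 1.21) in WT and at 184 and 113 CPM in the dusp6 pair. On that scale etv4, an ETS factor gene induced by FGF, had the largest difference of the list. It stood at 8.37 and 14.4 CPM in WT and at 13.9 and 8.65 CPM in the dusp6 pair. By the ratio of CPM the low gene dusp2 differed more, at 0.617 and 1.49 CPM in WT (2.41-fold, 1.63 to 3.62). In the dusp6 pair dusp2 stood at 0.971 and 0.951 CPM. Among 13 FGF ligands and receptors 0 were 2-fold higher and 1 lower on the log2(CPM + 1) scale, with a median of 0.05. This was fgf7, a ligand made by mesenchyme, at 14.7 and 3.08 CPM (4.78-fold lower, 4.05 to 5.66) in WT and at 9.68 and 16.5 CPM in the dusp6 pair. fgf17 stood at 51.3 and 74.7 CPM and fgf18a at 2.58 and 5.67 CPM.

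Of 94 other growth factor and receptor genes 4 were 2-fold higher (4.26%, against 3.12% of all genes) and 0 lower. The list's median was -0.08, equal to that of all genes. igfbp6b, which binds insulin-like growth factors, stood at 95.9 CPM uninjured and 311 CPM at 20 dpa (3.24-fold, 3.15 to 3.34), and at 80.4 and 629 CPM in the dusp6 pair. The other 3 were the retinoid genes aldh1a2, rbp4 and crabp2b. nrg1, a mitogen of cardiomyocytes, lay below the floor and so outside the 94 genes, with 17 counts uninjured and 29 counts at 20 dpa in WT. It stood at 0.269 and 0.525 CPM with an interval for the fold from 1.04 to 3.79, which covers counting error only. In the dusp6 pair nrg1 stood at 0.592 and 0.449 CPM, the opposite direction. vegfaa, an endothelial growth factor gene, stood at 41.0 and 30.9 CPM in WT and at 29.4 and 35.1 CPM in the dusp6 pair.

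**Figure D4:**
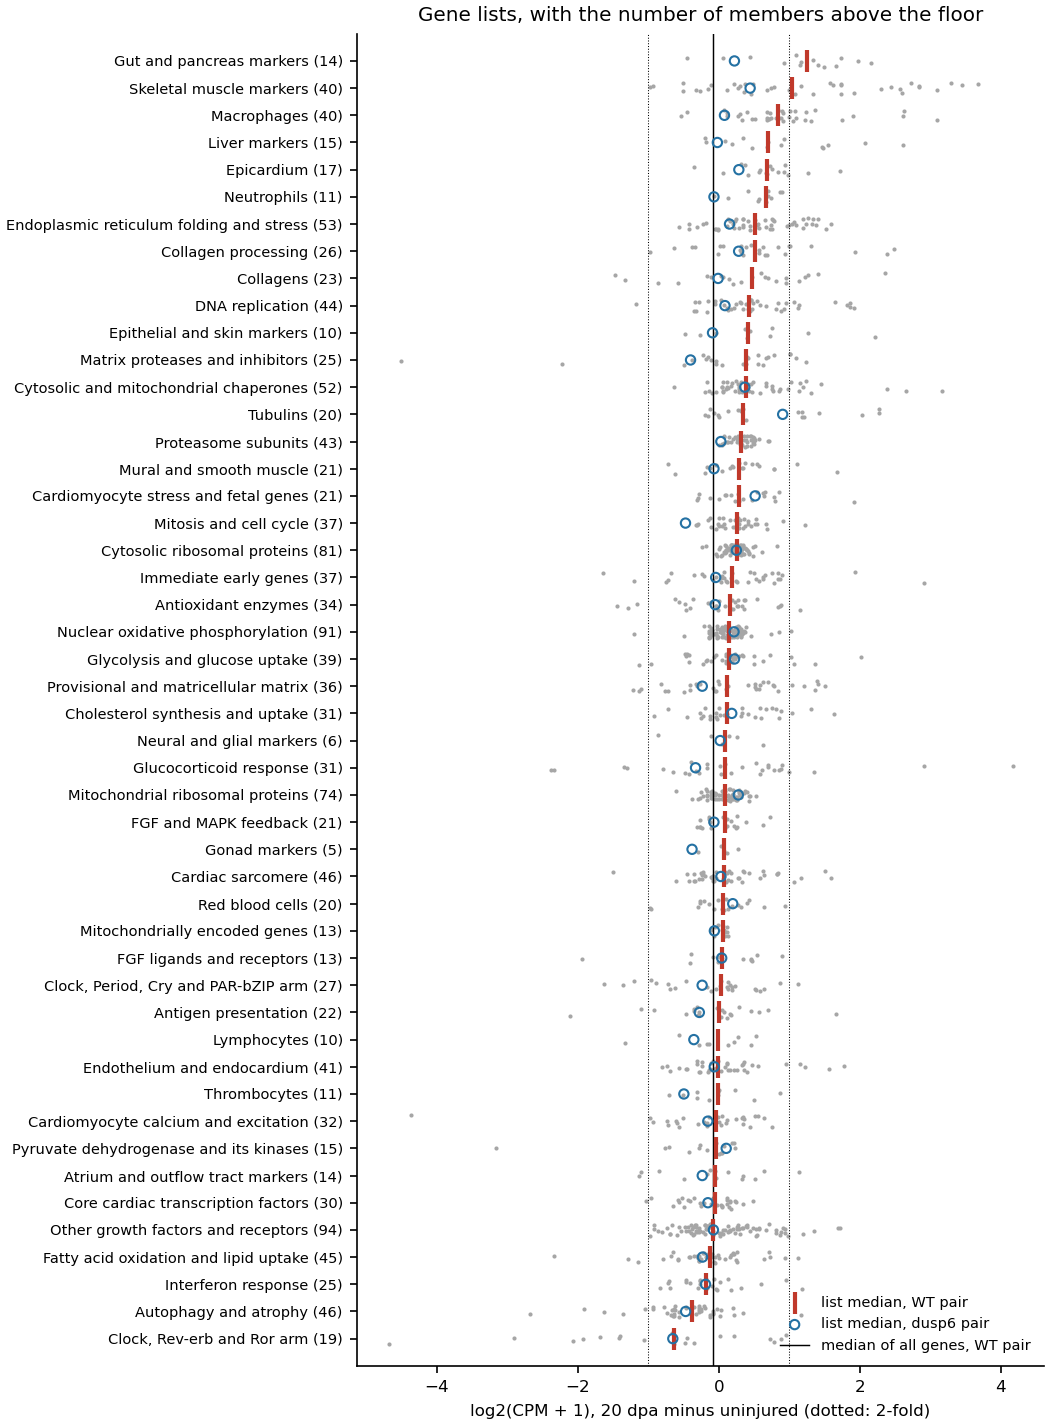
Difference of log2(CPM + 1), 20 dpa minus uninjured, for the members above the floor (grey points, their number after the list name) of 48 gene lists, with the list's median in WT (red bar) and in the dusp6 pair (blue ring), the median of all genes in WT (line) and 2-fold (dotted). The digestive, skeletal muscle and macrophage lists have the highest medians in WT, at 1.25, 1.04 and 0.84. Without the floor the medians of these lists are 0.33, 0.40 and 0.74. The Rev-erb and Ror arm and autophagy have the lowest medians, at -0.64 and -0.38.

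The dusp6 pair gave a second pair of uninjured and resected libraries, from another genotype, against which each WT difference could be set. Of the 472 genes 2-fold higher in WT, 162 (34.3%) were also 2-fold higher in the dusp6 pair and 381 (80.7%) had the same sign. Of the 418 lower genes, 198 (47.4%) were also 2-fold lower and 363 (86.8%) had the same sign. Over all 15111 genes the sign was shared by 73.5%. Within the dusp6 pair 8.44% of genes were 2-fold apart, 3.25% higher and 5.19% lower, and the genes shared with WT made up 33.1% and 25.4% of these. Each gene was placed in 1 class, and a 2-fold difference in the dusp6 pair, in either direction, took precedence over the classes below. Among the remaining genes, the WT 20 dpa library alone stood 2-fold apart from each of the other 3 in 77 higher and 19 lower genes. Examples are fkbp5 and tnni1d. Among the same remaining genes the WT uninjured library did so in 24 higher and 43 lower genes, as in gpd1a and f13a1a.1. In the opposite direction, 7 of the higher genes (1.48%) and 10 of the lower genes (2.39%) were 2-fold apart in the dusp6 pair. Over all 15111 genes 4.71% were 2-fold lower and 2.82% were 2-fold higher in that pair. The share for the lower genes was thus near that of all genes. The pairs differ in genotype as well as in fish, so a gene found in 1 pair alone cannot be assigned to either.

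**Figure D5:**
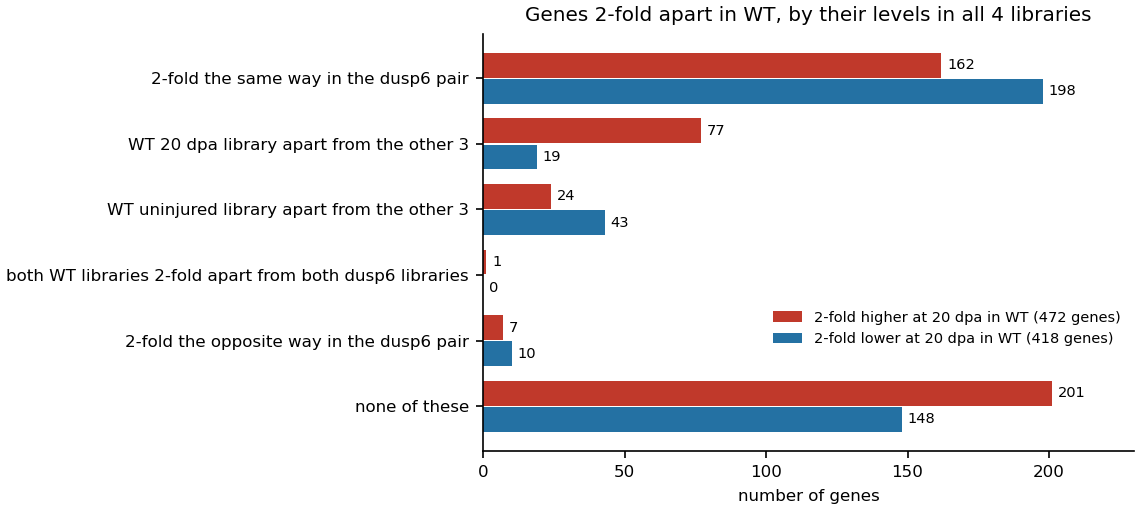
Number of genes 2-fold higher (red, 472) or lower (blue, 418) at 20 dpa in WT, by how the 4 libraries stood to each other. Each gene is counted in 1 class, and a 2-fold difference in the dusp6 pair takes precedence over the classes of libraries that stand apart. The largest named class in both directions is a 2-fold difference the same way in the dusp6 pair, with 162 and 198 genes; the WT 20 dpa library apart from the other 3 is next for higher genes (77) and the WT uninjured library apart for lower genes (43).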

How the data were processed

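The authors deposited 2 tables of 31388 genes, which hold per library the "Expression values" and the RPKM, per the file headers. The deposited expression values are whole numbers and were taken as raw counts. The sources used here do not give the aligner, genome build, annotation or strand setting, so overlapping genes and paralogs can share reads. The authors' deposited fold changes and EDGE tests, against both uninjured libraries together, were not used. Counts were divided by the column total (CPM). Genes with 50 counts in either WT library were compared by log2(CPM + 1), and a 2-fold difference was counted. Folds are CPM ratios without a pseudocount, with exact conditional intervals (scipy 1.17.1). Python 3.11.15, numpy 2.4.6, pandas 2.3.3, matplotlib 3.10.9, and in R 4.3.3 edgeR 4.0.16 and DESeq2 1.42.0 for alternative scalings only, were used. The folds and intervals were run on counts simulated with counting error alone. That run checked the arithmetic and could not show variation between fish or libraries.

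With 1 library per group no test was made. Symbols are those of the tables, and the gene name table held 25925 of the identifiers. Named genes were the 12 largest differences in each direction that had a proper symbol and 250 or more counts in their higher library, which passed over 2 higher and 9 lower genes, up to 4 members of each of 48 lists with the largest difference, and 10 genes of set interest, fkbp5 among them; other list members are named where a count needs them, and 1 gene met by the rule is not reported here. The comparison, the members and the lists were chosen with earlier results of these data known. Alternatives were other scalings, floors, pseudocounts, folds and uninjured references.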

Additional observations from a re-analysis of the deposited data

Results flagged for a closer look

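In the class I antigen presentation gene mhc1uba the WT pair and the dusp6 pair differed 2-fold in opposite directions, in log2(CPM + 1) of 20 dpa minus uninjured. The difference was 1.66 in WT and -1.22 in the dusp6 pair. The difference between the genotypes was not tested, since each pair holds 1 library a side.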

How the results depend on the processing

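The counts of 472 higher and 418 lower genes became 834 and 894 with a pseudocount of 0.1 CPM and 90 and 78 with 10 CPM, 1370 and 1778 at 1.5-fold and 51 and 32 at 4-fold, and 710 and 701 with the dusp6 uninjured library as reference. Within 1.5 times of the reported counts were edgeR TMM scaling (545 and 347), DESeq2 size factors (530 and 359), floors of 10 and 250 counts, trimmed totals and the mean of both uninjured libraries (470 and 512). The median of all genes moved by 0.06 at most under a scaling. Of the 48 lists, 20 had a median at least 0.3 from that of all genes. A pseudocount of 10 CPM left 10 and no floor left 13. Of 201 named genes 121 were 2-fold apart, and 58 with that pseudocount. With the dusp6 uninjured library as reference 8 lists had a median of the other sign; most of these lay near 0, and the largest turns were glucocorticoid response (0.09 to -0.35) and mitosis (0.25 to -0.0618), the latter the 1 list of the 20 to cross the median of all genes. Among named genes 2-fold apart the sign turned for socs3a_1 (-0.55) and nr4a2a (0.20). TMM and DESeq2 scaling each turned 8 list medians, all within 0.1 of 0. No paired analysis was possible because each group has 1 library. At this depth, folds of genes with under about 50 counts are limited by counting error, as their intervals show.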

Other observations

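Genes that share a symbol stem were also grouped, a scan made after the values were seen and given with no test. The asb genes, which encode substrate adaptors of ubiquitin ligases and are abundant in muscle, were lower at 20 dpa, with a median log2 difference of -0.69 over 21 genes, 7 of them 2-fold lower and 0 higher. asb10 stood at 47.9 CPM uninjured and 12.1 CPM at 20 dpa in WT, asb15b at 69.6 and 18.8 CPM, and asb2b at 47.7 and 12.8 CPM. In the dusp6 pair these genes stood at 60.7 and 34.4 CPM, 103 and 19.2 CPM, and 64.4 and 25.6 CPM, and the stem's median was -0.58. Histone demethylase genes of the kdm stem differed little each, but all 19 lay below 0, with a median of -0.33. For example, kdm4aa stood at 47.3 and 29.5 CPM. Of all 15111 genes 8707 lay below 0, and the kdm median in the dusp6 pair was -0.16.

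At the other end were annexins, which bind membranes in the presence of calcium, with a median of 0.51 over 11 anxa genes, and subunits of the actin-nucleating Arp2/3 complex, with 0.47 over 10 arpc genes. anxa2a stood at 389 CPM uninjured and 712 CPM at 20 dpa, and arpc5a at 17.0 and 43.6 CPM. The medians of these 2 stems in the dusp6 pair were 0.00 and 0.12.

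The sodium pump subunit gene atp1b1b, chosen after its values were seen, stood at 16.2 CPM uninjured and 79.1 CPM at 20 dpa in WT and at 88.2 and 17.5 CPM in the dusp6 pair.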
